A study of Mus musculus with 21 samples.

Results

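Kidney glucose handling was followed through 9 genes in the kidneys of apoE knockout mice fed adenine with or without iodomethylcholine (IMC). The genes were looked up by symbol among the 20634 genes measured in both count tables, and all 9 were found. They form 2 sets. The first 4 make glucose or take up fructose carbon: Pck1, G6pc, Fbp1 and Khk. The other 5 take up glucose and run glycolysis: Hk1, Hk2, Pfkp, Pkm and Slc2a1. The mice were female, carried the apoE knockout on the C57BL/6J background in every group, were 4 weeks old at the start, and ate their diets for 14 weeks, so that they were 18 weeks old at harvest. Control mice (Con, n = 5) ate standard chow, the adenine group (Ade, n = 6) ate chow with 0.2% adenine, and the third group (Ade + IMC, n = 6) ate the same adenine diet with 0.06% IMC. Excess dietary adenine forms crystals that damage kidney tubules, and IMC blocks the bacterial enzyme that makes trimethylamine from choline. There was no wild-type group, and the 4 Con + IMC mice named in the labels were not analysed here. Each library held RNA of whole kidney from 1 mouse, at 5444833 to 11680809 counted reads, and the control libraries were on the whole deeper (7716126 to 11680809 reads) than those of Ade (5444833 to 7673215) and Ade + IMC (5728589 to 8305968).

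The kidney cortex is, with the liver, the organ that can release new glucose into the blood. Cells of the proximal tubule build it from lactate, glutamine and glycerol, and they also take up and burn fructose, whereas they carry little of the machinery that breaks glucose down. Glycolysis is used more by distal segments, by connective tissue and by leukocytes, and the hexokinases, phosphofructokinases and pyruvate kinases exist as several isoforms whose balance differs between those cells.

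The genes' places in the genome (GRCm38, GENCODE release M21) were as follows. Pck1 spans chr2:173153048-173159273 on the plus strand and G6pc chr11:101367561-101377903 on the plus strand. Fbp1 spans chr13:62864753-62888282 on the minus strand and Khk chr5:30921431-30931248 on the plus strand. Hk1 spans chr10:62268855-62379908 and Hk2 chr6:82725025-82774454, both on the minus strand. Pfkp spans chr13:6579768-6648777 on the minus strand, Pkm chr9:59656368-59679375 on the plus strand and Slc2a1 chr4:119108711-119137983 on the plus strand. Values count reads over all exons of a gene, so that the splice forms of Pkm or of Khk were not told apart. Of the exonic bases, 767 of 5001 in Pkm are shared with another gene on the same strand, and 748 of 13401 in Pfkp, 157 of 8532 in Hk1 and 105 of 3506 in Slc2a1 lie across from a gene on the other strand.

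The 250 bases before the RefSeq start of 4 of the genes (build GRCm38.p6) are shown 5′ to 3′, as examples of the differences that follow: Pck1 and Fbp1 fell, and Hk2 and Pfkp rose, with adenine feeding. They were picked with those results known. Capitals mark matches, on either strand, to 6 short motifs. These are the TATA box (TATAAA), the CCAAT box, the GC box (GGGCGG), the partial cyclic AMP response element TGACG, the hypoxia response core ACGTG, and the E-box CACGTG, which contains that core.
Pck1 (chr2:173152823-173153072, plus strand): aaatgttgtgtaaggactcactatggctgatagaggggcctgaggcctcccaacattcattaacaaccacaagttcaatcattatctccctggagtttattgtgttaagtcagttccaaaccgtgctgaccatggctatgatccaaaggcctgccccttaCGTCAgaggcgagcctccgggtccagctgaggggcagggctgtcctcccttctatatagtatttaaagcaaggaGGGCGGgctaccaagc
Fbp1 (chr13:62888283-62888532, minus strand): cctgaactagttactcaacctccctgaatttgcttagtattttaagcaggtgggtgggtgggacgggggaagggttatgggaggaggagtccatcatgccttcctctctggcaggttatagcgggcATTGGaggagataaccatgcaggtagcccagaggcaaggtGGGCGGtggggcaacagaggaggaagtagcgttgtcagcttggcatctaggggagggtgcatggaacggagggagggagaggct
Hk2 (chr6:82774455-82774704, minus strand): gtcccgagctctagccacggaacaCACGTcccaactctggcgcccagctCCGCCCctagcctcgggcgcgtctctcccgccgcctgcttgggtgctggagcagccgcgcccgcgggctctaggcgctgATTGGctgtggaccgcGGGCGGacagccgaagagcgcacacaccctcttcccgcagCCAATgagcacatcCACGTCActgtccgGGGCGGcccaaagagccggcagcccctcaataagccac
Pfkp (chr13:6648772-6649021, minus strand): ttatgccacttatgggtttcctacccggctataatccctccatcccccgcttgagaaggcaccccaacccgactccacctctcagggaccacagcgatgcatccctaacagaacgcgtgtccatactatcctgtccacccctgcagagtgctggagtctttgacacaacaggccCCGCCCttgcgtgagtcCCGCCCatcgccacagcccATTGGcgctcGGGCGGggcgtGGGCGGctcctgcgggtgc

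Pck1 held 1 partial cyclic AMP response element and 1 GC box, and Fbp1 held 1 CCAAT and 1 GC box. Hk2 held 2 CCAAT boxes, 3 GC boxes, 1 partial cyclic AMP response element and 2 hypoxia response cores, of which 1 overlaps that element. Pfkp held 1 CCAAT and 4 GC boxes. Over all 32851 RefSeq promoter windows, each from 250 bases before to 50 bases after a start, 37.4% held a CCAAT box, 35.7% a GC box, 20.8% the partial cyclic AMP response element, 19.6% the hypoxia response core, 13.6% a TATA box and 7.15% the E-box. A match describes the letters and is no evidence of binding.

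In control kidneys the glucose-making set was far more abundant than the glycolytic set. Per kilobase of exon, in library-scaled counts (CPM per kb, mean ± SD, n = 5), Pck1 stood at 2462 ± 482, Fbp1 at 808 ± 99.6, Khk at 382 ± 78.1 and G6pc at 155 ± 43.3. Below them came Pkm at 46.4 ± 4.42, Hk1 at 30.0 ± 3.18, Slc2a1 at 23.3 ± 3.69, Pfkp at 7.12 ± 0.835 and Hk2 at 0.267 ± 0.230. Hk1 and Slc2a1 overlapped between mice, while every other pair of neighbours in this order was separated in all 5 mice. The order of the group means was the same in Ade and in Ade + IMC, but the spacing was narrower: in Ade, Pck1 was at 1160 ± 467 and Hk2 at 4.44 ± 2.0 (n = 6), and Fbp1 overlapped Khk, Khk overlapped G6pc, and G6pc overlapped Pkm.

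**Figure D1:**
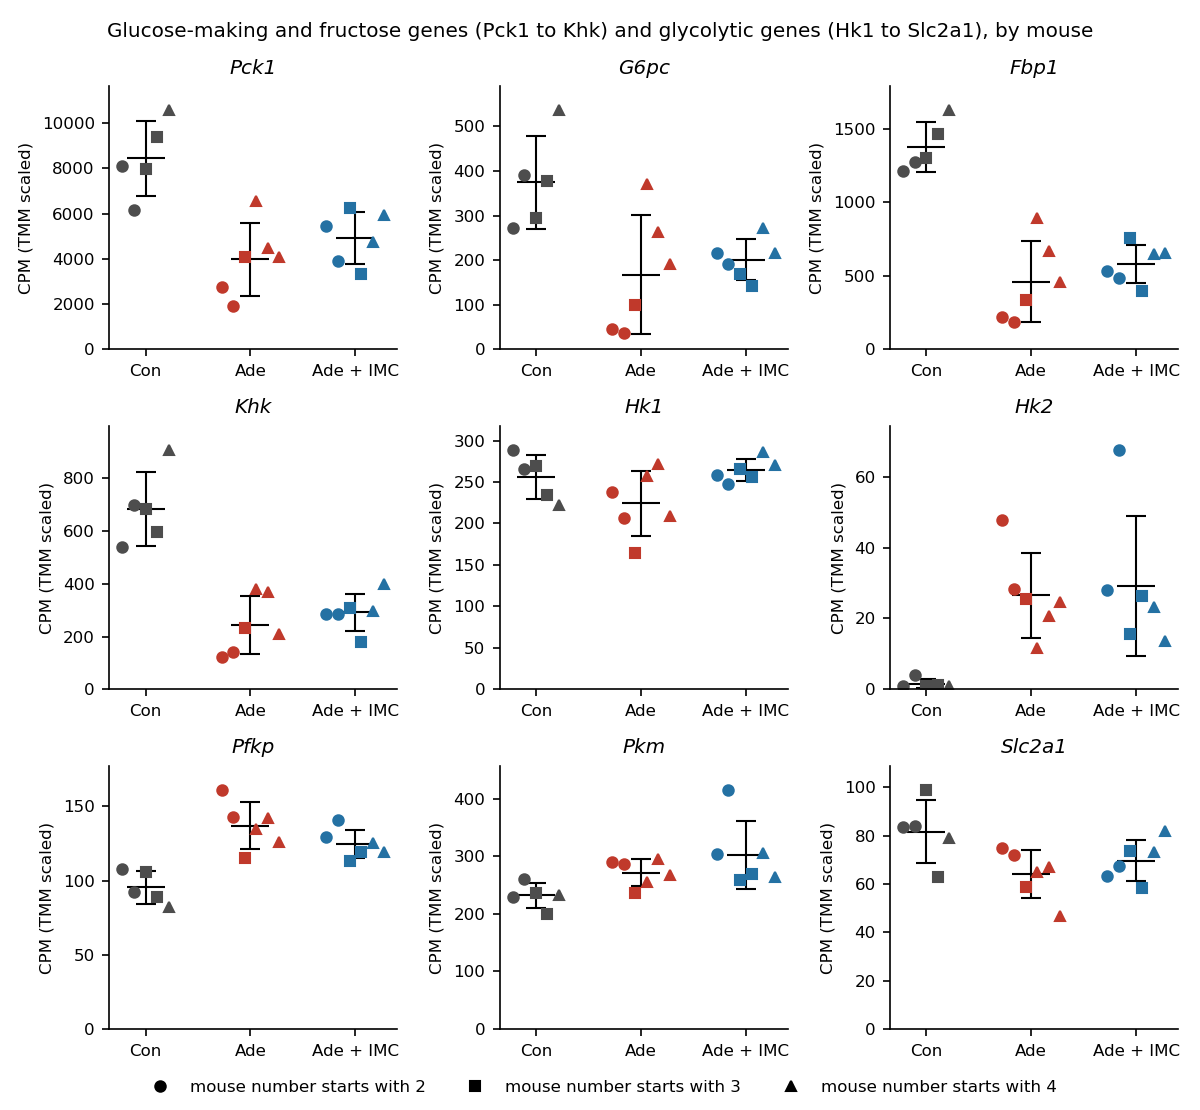
CPM of each of the 9 genes (y axes, each from 0) in every mouse of the Con, Ade and Ade + IMC groups (x axes), with the mean and SD of each group as bars and the leading digit of each mouse's number as the point shape. Fbp1 and Khk were lower and Hk2 and Pfkp higher in all 12 adenine-fed mice than in the 5 control mice.

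The first comparison asked how adenine feeding moved the levels of these genes, Ade against Con. All 4 genes of the glucose-making set fell, by 2.09-fold (Pck1) to 2.96-fold (Fbp1). Of the glycolytic set, Hk2 rose 17.4-fold, Pfkp rose 1.46-fold and Pkm rose 1.19-fold, Slc2a1 fell 1.25-fold, and Hk1 was not called (log2 difference -0.17). In edgeR's quasi-likelihood test with Benjamini-Hochberg adjustment over 14612 genes, 8 of the 9 genes passed an adjusted p under 0.1, where 67.3% of all genes tested did (35.1% higher, 32.2% lower). Most genes moved between these groups, so a called member is not unusual here.

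Pck1 encodes the cytosolic phosphoenolpyruvate carboxykinase, which commits carbon to glucose synthesis. In the control mice it was at 8111, 6180, 7950, 9385 and 10580 CPM, and in the Ade mice it ran from 1905 over a median of 4088 to 6572 CPM. The groups overlapped by a single pair, since mouse 407 of the Ade group stood above mouse 202 of the control group. The log2 fold change was -1.06 ± 0.27 (SE; edgeR adjusted p = 0.00338).

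Fbp1, the fructose bisphosphatase that reverses the phosphofructokinase step, was at 1210, 1274, 1298, 1466 and 1627 CPM in the control mice. In Ade it ran from 185 over a median of 394 to 890 CPM, so that every adenine-fed mouse lay below every control mouse. The log2 fold change was -1.57 ± 0.34 (adjusted p = 0.00133). Complete separation of the groups was found for 43.0% of all genes tested, with 20.6% of genes lower and 22.4% higher in Ade. Fbp1 and Khk were separated downwards, and Hk2 and Pfkp upwards.

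Khk encodes ketohexokinase, the enzyme that phosphorylates fructose. It was at 541, 698, 685, 596 and 908 CPM in the control mice and ran from 123 over a median of 222 to 379 CPM in Ade. All Ade mice were again below all control mice, and the log2 fold change was -1.48 ± 0.27 (adjusted p = 0.000389).

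G6pc encodes the catalytic subunit of glucose-6-phosphatase, the last step before glucose leaves the cell. It was the most variable gene of the glucose-making set in Con and in Ade, though not in Ade + IMC. It was at 272, 391, 294, 377 and 537 CPM in the control mice. In Ade it was at 46.0 and 36.1 CPM in mice 207 and 208, at 99.6 in mouse 308, and at 371, 263 and 191 in mice 407, 408 and 409. The SD was 78.9% of the mean in Ade and 27.9% in Con, and the groups overlapped. The log2 fold change was -1.14 ± 0.49 (adjusted p = 0.0582). That call was lost without control mouse 403 (adjusted p = 0.129) or without Ade mouse 308 (0.107). It was also lost when libraries were scaled by their totals alone and in the mice with few adipocyte transcripts, both given below. Blocking on the mouse number's leading digit gave -2.04 (adjusted p = 0.000169).

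The leading digit of a mouse's number (2, 3 or 4, of unstated meaning) went with the level of the whole glucose-making set among Ade mice. Mice 207 and 208 were the 2 lowest of the 6 for each of the 4 genes, and mouse 407 was the highest for each. Within mice whose number starts with 2, the log2 difference of Ade from Con was -1.63 for Pck1, -3.00 for G6pc, -2.63 for Fbp1 and -2.21 for Khk. Within those starting with 3, where Ade had 1 mouse, it was -1.08, -1.74, -2.05 and -1.45 in the same order, and within those starting with 4, where Con had 1 mouse, -1.1, -1.02, -1.33 and -1.56. All 4 genes were thus lower in Ade within each digit, by amounts that differed. This difference between digits was not tested.

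Hk2 encodes the hexokinase of muscle, fat and many dividing cells and was at few reads in control kidneys. It had 9, 28, 6, 9 and 8 reads in the 5 control mice, or 0.908, 4.04, 0.813, 1.17 and 1.05 CPM. In the Ade mice it was at 47.9, 28.4, 25.4, 11.8, 20.8 and 24.8 CPM (mice 207, 208, 308, 407, 408 and 409). The lowest Ade mouse had 87 reads, and no Ade mouse reached down to the control range. The log2 fold change was 4.12 ± 0.44 (adjusted p = 3.87e-06), and without control mouse 202 it was 4.76.

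Pfkp encodes the platelet-type phosphofructokinase. It was at 108, 92.0, 106, 89.1 and 82.1 CPM in the control mice and ran from 115 over a median of 138 to 161 CPM in Ade. The groups did not overlap, and the log2 fold change was 0.54 ± 0.10 (adjusted p = 0.000333).

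Pkm, which encodes the muscle-type pyruvate kinases, was at 230, 261, 236, 199 and 233 CPM in the control mice and ran from 236 over a median of 276 to 295 CPM in Ade. The ranges overlapped, and the log2 fold change was 0.25 ± 0.09 (adjusted p = 0.0300). Slc2a1, the widely expressed glucose transporter GLUT1, was at 83.5, 83.9, 99.0, 62.9 and 79.0 CPM in the control mice and ran from 47.0 over a median of 65.9 to 74.9 CPM in Ade. Its log2 fold change was -0.33 ± 0.13 (adjusted p = 0.0420), a call that was lost without control mouse 301 (adjusted p = 0.119) and under upper-quartile scaling (0.11). Hk1, the hexokinase of most tissues, was at 289, 266, 269, 235 and 222 CPM in the control mice and ran from 165 over a median of 224 to 272 CPM in Ade, with a log2 difference of -0.17 (95% interval -0.43 to 0.10, adjusted p = 0.252). When libraries were scaled by their totals alone, the median of all genes moved to 0.32, and Hk1 turned to 0.12 while Slc2a1 stood at -0.032. Both values lie under that median.

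**Figure D2:**
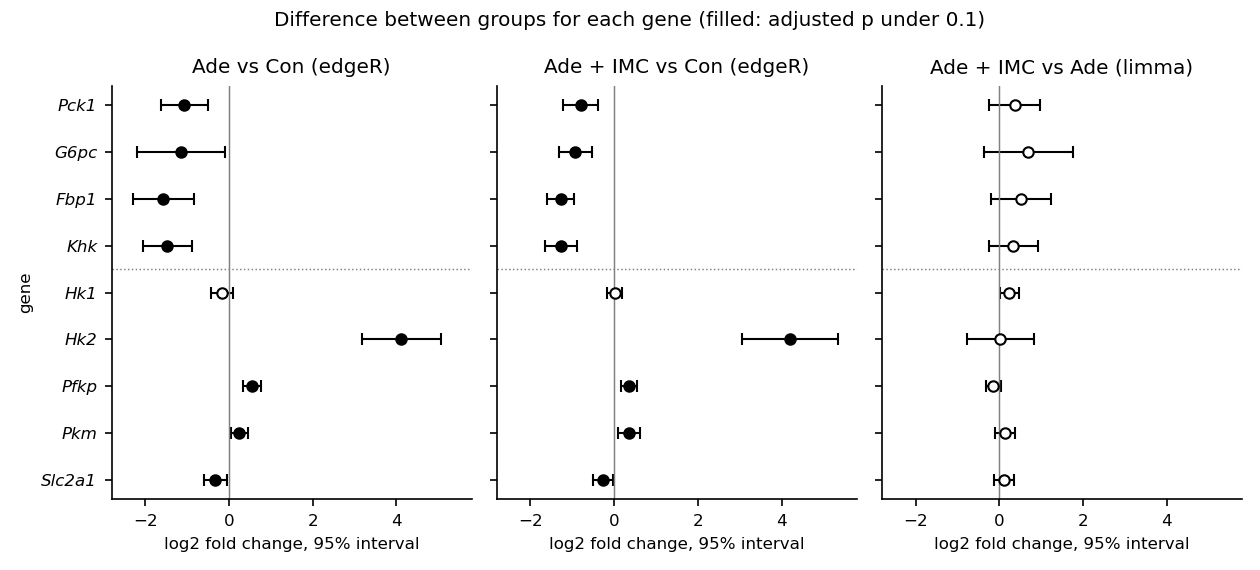
Log2 fold change with its 95% interval (x axes) of each gene (y axis; glucose-making set above the dotted line) in the 3 comparisons, with filled points for an adjusted p under 0.1. The 4 upper genes lie left of 0 in both comparisons with Con, Hk2 lies at 4.12 and 4.20, and all 9 points are open in Ade + IMC against Ade.

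Set against each other within a mouse, the mean log2 CPM of the 5 glycolytic genes minus that of the 4 glucose-making genes was -4.45 ± 0.38 in Con (SD, n = 5; range -4.99 to -4.02). In Ade it was -2.08 ± 1.01 (n = 6; -3.36 to -0.87). Every Ade mouse was above every control mouse, and the mean difference of 2.37 corresponds to a 5.17-fold shift of the ratio. The shift came mostly from the falling set and from Hk2. Without Hk2 the glycolytic mean was 7.19 ± 0.14 in Con and 7.24 ± 0.17 in Ade, with overlapping ranges, whereas the glucose-making mean went from 10.34 ± 0.24 to 8.80 ± 0.87. This score was built from chosen genes and carries no test.

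**Figure D3:**
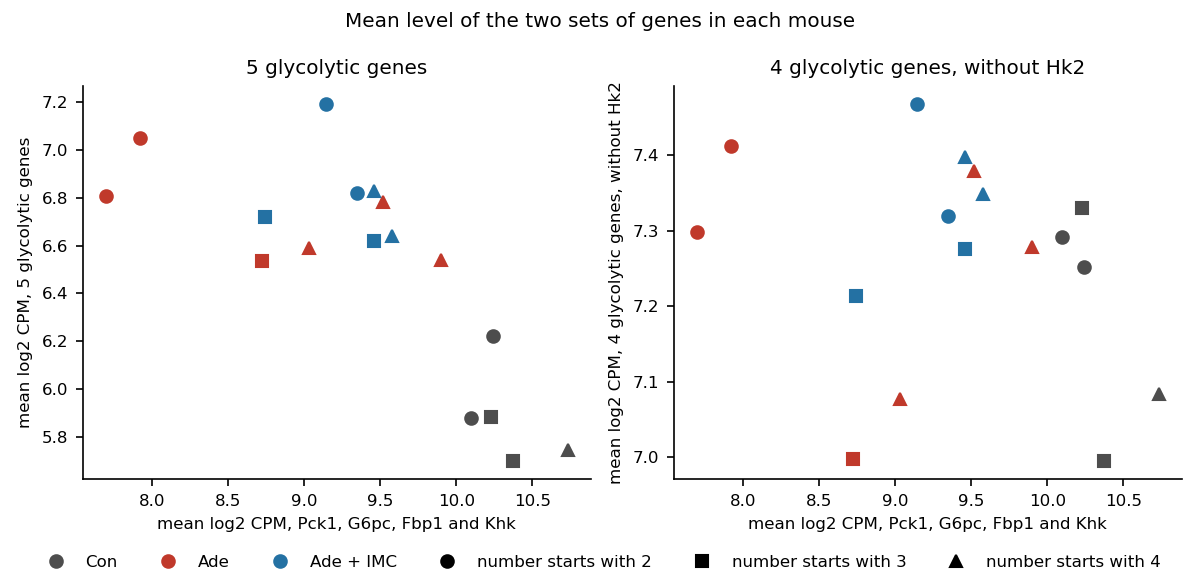
Mean log2 CPM of the glucose-making genes (x axes) against that of all 5 glycolytic genes (left) or of the 4 without Hk2 (right), 1 point a mouse, coloured by group and shaped by the leading digit of its number. With Hk2 the control mice sit apart at the lower right, and without it their glycolytic values, 6.99 to 7.33, overlap those of the Ade mice, which reach 7.41.

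Isoform shares differed between Con and Ade in several families. Shares were taken of CPM per kb summed over a family. Hk1 made up 94.3% ± 1.35 of hexokinase RNA in Con and 72.6% ± 7.09 in Ade. Hk2 went from 0.835% ± 0.683 to 12.3% ± 4.96, and Hk3, the hexokinase of myeloid cells, from 1.07% ± 0.324 to 11.3% ± 3.79. Neither share overlapped between Con and Ade. Pfkp made up 13.3% to 16.1% of phosphofructokinase RNA in Con and 21.7% to 30.7% in Ade, as Pfkm, the muscle-type isoform, fell 1.56-fold (edgeR adjusted p = 0.000323). Pkm made up 68.5% ± 4.35 of pyruvate kinase RNA in Con and 73.2% ± 2.92 in Ade, with overlap. Slc2a1 took a larger mean share of 4 facilitative transporters, from 35.0% ± 6.78 to 50.7% ± 8.35, while its own level fell and Slc2a2, the transporter through which tubule cells pass glucose to the blood, fell from a mean of 169 to 52.4 CPM (adjusted p = 4.54e-05). On the glucose-making side Pck1 held a mean of 99.9% of its family in Con and 99.4% in Ade, with the mitochondrial Pck2 making up the rest. G6pc went from 84.6% ± 2.72 to 63.0% ± 21.6 of glucose-6-phosphatase RNA beside the widely expressed G6pc3, whose level was 60.3 CPM in Con and 59.4 in Ade.

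**Figure D4:**
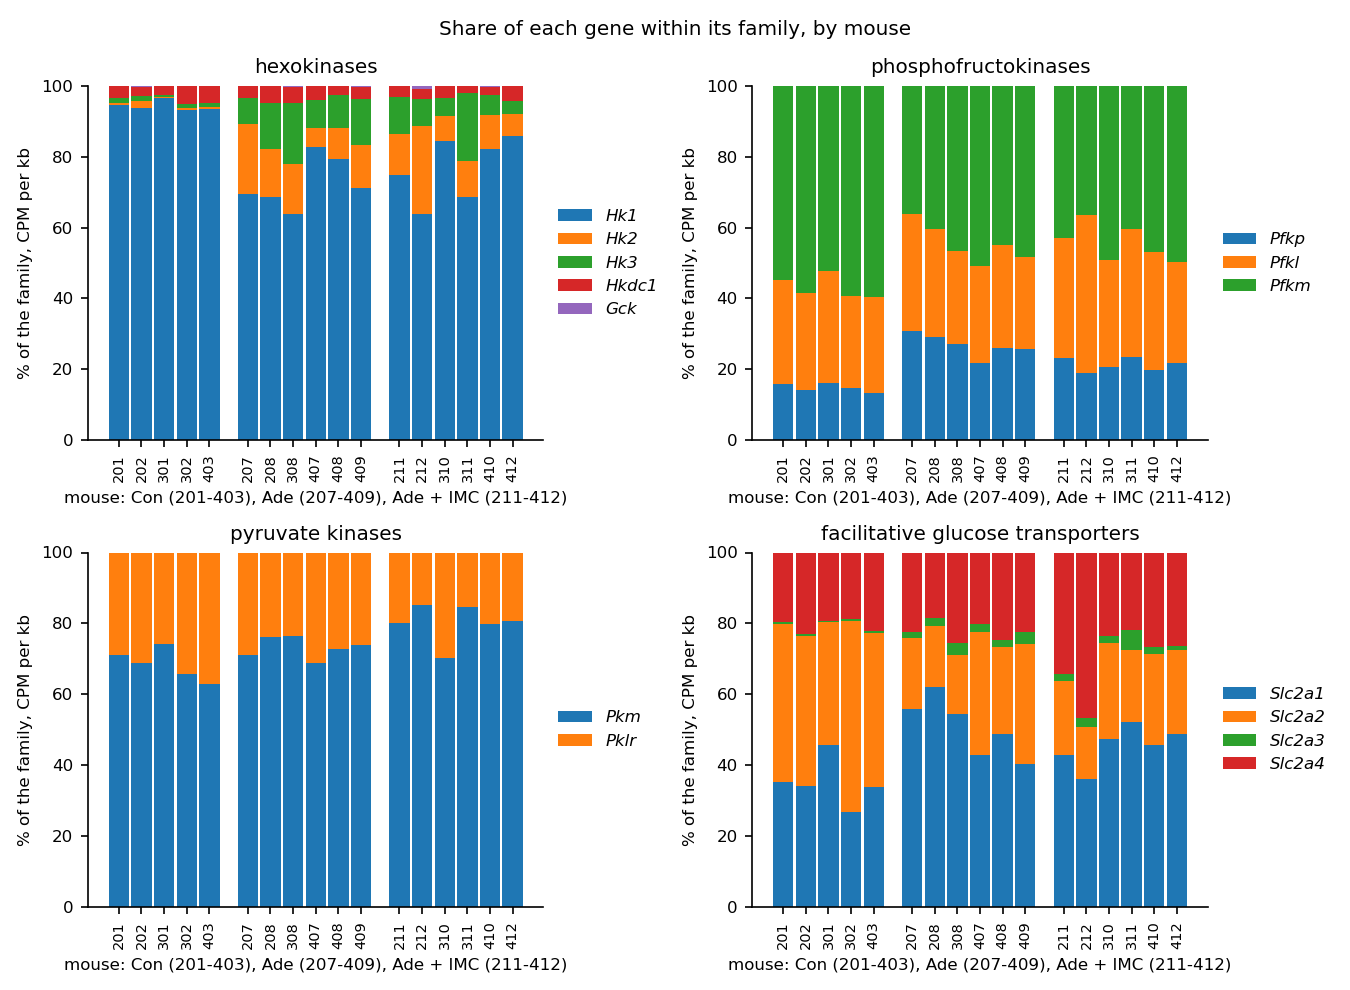
Share of each isoform in its family's CPM per kb (y axes, percent) in each mouse (x axes, grouped as Con, Ade and Ade + IMC from left to right). Hk2 and Hk3 are thin bands in the Con mice and reach 19.9% and 17.1% in single Ade mice, and Pfkp is wider in each adenine-fed mouse than in any control mouse.

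The surrounding gene lists are given by how many of their genes were called in Ade against Con, where 35.1% of all genes tested rose and 32.2% fell. Of 11 other gluconeogenesis enzymes tested, 8 fell and 1 rose (median log2 fold change -0.75, against 0.019 over all genes tested). Pcx, pyruvate carboxylase, fell 3.24-fold, and Slc37a4, the glucose-6-phosphate transporter that feeds G6pc, fell 2.18-fold, whereas Pck2 rose 1.70-fold (largest adjusted p 0.000923). Of 8 other fructose and polyol genes, 6 fell and none rose, led by Sord, sorbitol dehydrogenase, at 2.97-fold and Glyctk, glycerate kinase, at 2.67-fold. The fructose transporter Slc2a5 fell 2.51-fold. Of 12 genes that supply gluconeogenic substrate, 9 fell and 1 rose (median -1.11). Slc5a12, a lactate transporter, fell 7.33-fold and Gk, glycerol kinase, 5.01-fold, while the glutamine transporter Slc38a3 rose 1.65-fold.

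On the glycolytic side, 6 of 25 other enzymes rose and 10 fell (median -0.17), a number of calls close to the 67.3% of all genes tested. Hk3 rose 11.5-fold and Eno2, an enolase of neurons, 6.93-fold, from means of 1.26 and 2.25 CPM. Pgk1 and Pgam1 fell 1.69-fold and 1.61-fold, but both have near-identical processed copies in the genome, so that their levels are uncertain. Of 10 other glucose transporters, 3 rose and 6 fell. Slc2a6 rose 7.44-fold and Slc2a10 2.81-fold, from means of 1.1 and 1.52 CPM, and Slc5a2, the glucose cotransporter SGLT2 of the early proximal tubule, fell 4.19-fold, with Slc2a12 falling 3.64-fold. Of 12 genes for the fate of pyruvate, 10 fell and 2 rose. The lactate exporter Slc16a3 rose 3.89-fold, and Pdp1 rose 1.24-fold (adjusted p = 0.0899), while Pdp2 fell 2.81-fold and Pdk2, a kinase that restrains pyruvate dehydrogenase, fell 2.01-fold. Of 8 pentose phosphate genes, 4 rose and 1 fell (median 0.27), with Pgd up 1.46-fold, G6pdx up 1.40-fold and Rpe down 1.34-fold. Of 19 regulators, 13 fell and 3 rose: Ppara and Hnf4a, nuclear receptors of fatty acid use and of tubule identity, fell 3.96-fold and 3.26-fold, and Myc and Cebpb rose 3.67-fold and 3.54-fold.

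Markers of cell types moved with these results. All 12 proximal tubule markers fell in Ade (median log2 fold change -1.80), and their summed level was 20612 to 28559 CPM in Con, 3399 to 12035 in Ade and 5355 to 11012 in Ade + IMC. Megalin (Lrp2), a defining gene of that segment, averaged 4824 CPM in Con, 756 in Ade and 1043 in Ade + IMC. All 8 macrophage markers rose, from 215 to 256 CPM in Con to 1450 to 2376 in Ade and 1311 to 2210 in Ade + IMC. All 6 T cell, 4 B cell, 7 fibroblast and 6 tubular injury markers rose as well, all 5 collecting duct and 5 red cell markers fell, and 3 of 4 markers of the thick ascending limb and distal tubule fell. Of 6 endothelial markers 3 fell and 0 rose. Of 4 podocyte markers 1 rose and 0 fell, or 0 rose and 3 fell with the leading digit as a block, and their sum was lowest in Ade mice 207 and 208 (268 and 481 CPM), the mice that were also lowest for the glucose-making genes. In RNA of whole kidney, fewer cells of a type and less RNA per cell cannot be told apart, and the part of these markers in the results was not tested.

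Relative to the mean of the 12 proximal tubule markers in the same mouse, none of the 4 glucose-making genes was lower in Ade. On the log2 scale Pck1 stood 2.43 ± 0.20 above the markers in Con and 3.33 ± 0.31 above them in Ade, a difference of 0.90 with no overlap between the groups. The differences were 0.48 for G6pc, 0.26 for Fbp1 and 0.47 for Khk, each with overlapping groups. The marker mean itself went from 10.59 in Con to 8.52 in Ade. Any gene that fell less than the markers rises on this scale, as would the median gene, at a log2 fold change of 0.019. The share of all genes that separated on this scale was not computed. The mean of the 4 genes followed the marker mean across mice in the plot of both.

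Adipocyte markers (Adipoq, Plin1, Cidec, Cfd, Cidea and the brown fat gene Ucp1, a list chosen after the values were seen) varied between single mice. Their sum was 1.01 to 27.6 CPM in Con (highest in mouse 202), 0.812 to 248 in Ade (highest in mouse 207) and 0.553 to 1089 in Ade + IMC, where mice 212, 211 and 410 had 1089, 281 and 180. Mice 202, 207 and 212 also had the highest Hk2 of their groups. In the 11 mice with a sum under 25 CPM, Hk2 was at 0.813 to 1.17 CPM in 4 control mice, 11.8 to 25.4 in 4 Ade mice and 13.6 to 26.3 in 3 Ade + IMC mice. With only those mice the Hk2 log2 fold change was 4.41 for Ade against Con (adjusted p = 7.43e-07), and 7 of the 9 genes were called, G6pc no longer being among them (-0.65, adjusted p = 0.121). The limit of 25 CPM was set after the values were seen and leaves out control mouse 202, the control mouse with the highest Hk2. Without that mouse alone the Hk2 log2 fold change was 4.76. It also leaves out Ade mice 207 and 208 (248 and 38.0 CPM of adipocyte markers), the lowest Ade mice for each glucose-making gene. The part of adipocyte RNA in the Hk2 values was not tested.

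**Figure D5:**
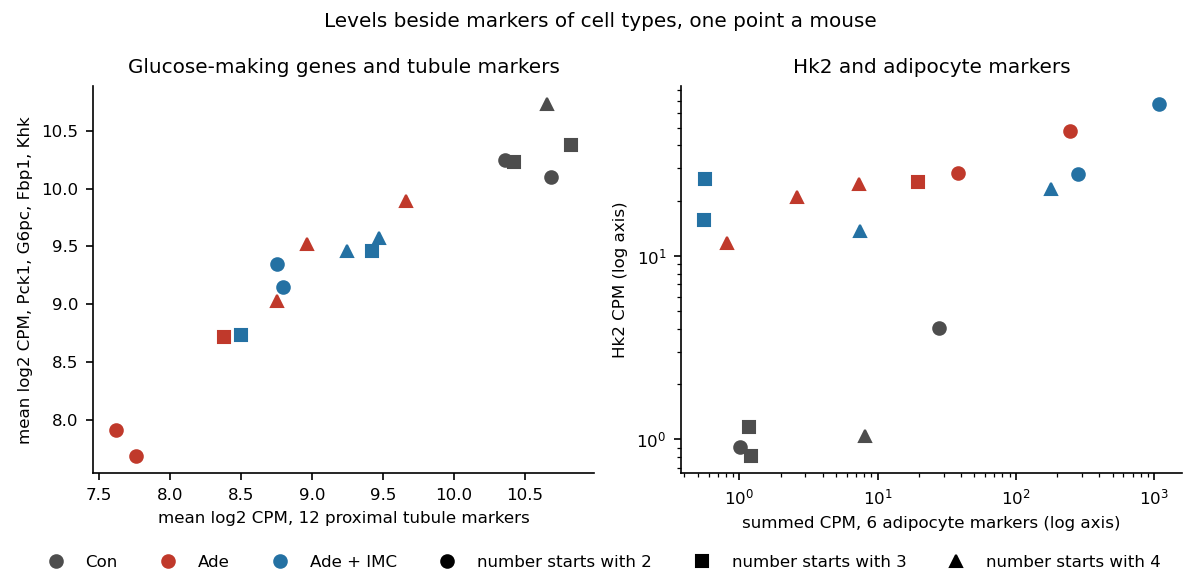
Left, mean log2 CPM of the 4 glucose-making genes (y axis) against that of the 12 proximal tubule markers (x axis); right, Hk2 CPM (y axis, log) against the summed CPM of 6 adipocyte markers (x axis, log), 1 point a mouse. The left points run along a band from the 2 lowest Ade mice to the control mice, and on the right Hk2 lies at 11.8 CPM or more in the adenine-fed mice and at 4.04 or less in the control mice; the part of adipocyte RNA in Hk2 was not tested.

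The second comparison asked whether IMC given with adenine changed these levels, Ade + IMC against Ade. None of the 9 genes was called. In limma on log2(normalized count + 1) over 14696 genes, the adjusted p of the members ran from 0.717 to 0.994, and 0 genes in all were called (0.0%), the smallest adjusted p being 0.601. At an unadjusted p under 0.05 limma had 988 genes. edgeR called 0 genes and DESeq2 37, and limma with the leading digit as a block 133 (0.905%), with 0 members in each case. All 9 genes overlapped between the groups, where 0.225% of all genes did not (0.129% higher, 0.0953% lower).

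The estimates and their intervals show what 12 mice could and could not resolve. The glucose-making genes were all estimated higher with IMC, and every interval held 0. In the same fit to the mice with adipocyte markers under 25 CPM, G6pc turned to -0.28 and Khk to -0.053. That subset also leaves out every mouse of both groups whose number starts with 2, and mouse 410. In the fit to the mice starting with 4, G6pc turned to -0.15 and Fbp1 to -0.016. Of the 12 proximal tubule markers 11 were estimated higher with IMC (median 0.48) and of the 6 tubular injury markers 0 were (median -0.74), as were 0 of 8 macrophage markers (median -0.26). Higher with IMC were 5 of 5 red cell markers (median 1.56), 5 of 5 collecting duct markers (0.52), 4 of 4 podocyte markers (0.50), 4 of 4 markers of the thick ascending limb and distal tubule (0.35) and 6 of 6 endothelial markers (0.31). Fibroblast markers (3 of 7 higher, median -0.034), T cell markers (3 of 6, 0.0022) and B cell markers (1 of 4, -0.095) stayed near 0 in the median. Limma called none of these markers, and with the leading digit as a block 4 red cell and 2 collecting duct markers rose and 1 injury marker, Vcam1, fell. Relative to the mean of the tubule markers, Ade + IMC differed from Ade by -0.13 for Pck1, 0.19 for G6pc, 0.019 for Fbp1 and -0.16 for Khk, with overlapping groups. The part of these markers was not tested. The log2 differences were 0.37 for Pck1 (95% interval -0.24 to 0.98), 0.69 for G6pc (-0.37 to 1.75), 0.52 for Fbp1 (-0.21 to 1.24) and 0.34 for Khk (-0.25 to 0.92). Among glycolytic genes they were 0.24 for Hk1 (0.015 to 0.47, adjusted p = 0.717), 0.027 for Hk2 (-0.77 to 0.83), -0.14 for Pfkp (-0.32 to 0.04), 0.13 for Pkm (-0.11 to 0.37) and 0.12 for Slc2a1 (-0.13 to 0.36).

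In the Ade + IMC mice the glucose-making genes ran in narrower ranges than in Ade. Pck1 went from 3338 over a median of 5092 to 6232 CPM, G6pc from 141 over 203 to 273, Fbp1 from 396 over 590 to 754 and Khk from 177 over 290 to 400. The SD as a share of the mean was 22.6% to 24.3% for these 4 genes in Ade + IMC, 40.2% to 78.9% in Ade and 12.3% to 27.9% in Con. The lowest value of each gene lay in the Ade group, in mouse 207 or 208, and the difference in spread was not tested. Differences within the digits of the mouse number were taken from mean log2 CPM, which is scaled otherwise than the normalized counts of the limma fit, so that values near 0 can differ in sign from it. The difference of Ade + IMC from Ade for G6pc was 2.32 in mice starting with 2, 0.63 in those with 3 and -0.13 in those with 4. For Fbp1 it was 1.34, 0.71 and 0.0065, for Khk 1.1, 0.00064 and 0.16, and for Pck1 1.02, 0.16 and 0.10. The estimates were thus largest among the mice starting with 2, which were 2 in each group.

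The glycolytic genes of the Ade + IMC mice overlapped those of the Ade mice. Hk2 was at 28.0, 67.7, 15.6, 26.3, 23.2 and 13.6 CPM (mice 211, 212, 310, 311, 410 and 412), with mouse 212 far above the others. Hk1 ran from 248 over 262 to 286 CPM, Pfkp from 113 over 122 to 141, Pkm from 258 over 287 to 415 and Slc2a1 from 58.5 over 70.4 to 82.1. The within-mouse difference of the glycolytic and glucose-making means was -2.48 ± 0.41 in Ade + IMC, inside the Ade range, and differed from the Ade mean by -0.41. In the mice with adipocyte markers under 25 CPM, which include none starting with 2 in these groups, this difference between groups was 0.08.

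Against Con, the Ade + IMC mice differed much as the Ade mice did, and both comparisons share the 5 control mice. All 4 glucose-making genes fell. Pck1 fell 1.74-fold, G6pc 1.90-fold, Fbp1 2.43-fold and Khk 2.40-fold (edgeR on recovered reads, adjusted p = 0.00353, 0.000905, 1.84e-05 and 5.74e-05). Hk2 rose 18.4-fold (adjusted p = 2.68e-05), Pfkp 1.28-fold (0.00367) and Pkm 1.28-fold (0.0267), and Slc2a1 fell 1.19-fold (0.0619). The Slc2a1 call was lost without any 1 of mice 201, 202, 301, 211, 212 and 311 (adjusted p 0.102 to 0.168), under upper-quartile scaling and in the fit over 17 mice, and its log2 fold change was 0.025 under total-count scaling. Hk1 differed by 0.017 on the log2 scale (95% interval -0.16 to 0.19). That made 8 of 9 genes called, where 63.2% of the 14578 genes tested were (30.9% higher, 32.3% lower). Fbp1 and Khk (lower) and Hk2 and Pfkp (higher) were separated from Con in every mouse, as were 37.0% of all genes (20.5% higher, 16.4% lower).

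Hk2 without control mouse 202 was at a log2 fold change of 4.84 in place of 4.20. In the mice with adipocyte markers under 25 CPM, 5 genes were called, Pfkp (0.27, adjusted p = 0.123), Pkm (0.21, 0.177) and Slc2a1 (-0.21, 0.355) no longer passing, with 3 Ade + IMC and 4 control mice left. In the isoform shares Hk2 stood at 11.6% ± 6.84 of hexokinase RNA, Hk3 at 8.65% ± 5.74, and Pfkp at 19.0% to 23.4% of phosphofructokinase RNA, again above every control mouse.

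Among the 12 adenine-fed mice, after centring each group on its mean, the 4 glucose-making genes moved together: Pearson's r was 0.84 to 0.94 over their 6 pairs. The glycolytic genes did so less, at -0.30 to 0.79 over 10 pairs (median 0.36), and the 20 pairs across the sets ran from -0.68 to 0.49 (median -0.28). All points of a pair share a library. Of 10026 genes whose normalized counts averaged 100 or more, those most like the mean of the glucose-making set were Cyp2d26 (r = 0.98), Cyp4a10, Ak4, Car14 and Ass1 (each 0.97), and the 12 proximal tubule markers had a median r of 0.91 with it. Most like the mean of the glycolytic set were Acsl5 (0.94), Rnf169 and Pgd (0.93), Tkt (0.92) and Srebf1 (0.91), and the same tubule markers had a median r of -0.62 with it. The glycolytic mean was not scaled by gene, so that Hk2 weighed most in it. The SD of Hk2 was 45.1% of its mean in Ade and 68.0% in Ade + IMC, against at most 19.4% for any other glycolytic gene. Hk2 was highest in mouse 212. With the single glucose-making genes, r was -0.68 to -0.52 for Hk2 but 0.27 to 0.49 for Hk1. These are descriptions over mice, with no test.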

How the data were processed

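Kidney RNA was sequenced by the authors (TruSeq libraries, Illumina sequencer, single end; the study's methods name STAR and mm10, and the submitters' processing notes name Trimmomatic 0.39, FastQC 0.11.8, Bowtie2 2.2.5 and HTSeq 0.9.1; annotation release and strand setting are not given in the sources used here). The authors deposited whole-number counts per gene for the Con and Ade mice, and a signal, counts divided by size factors, for mice of both adenine-fed groups. The third deposited table pairs gene names with Ensembl IDs; its fold changes and p-values, the authors' own comparison, were not used. The normalized values of the Ade + IMC mice were whole multiples of what 1 read is worth (100.0% within 0.001 read), and reads recovered in this way for the Ade mice differed from their deposited counts in 0 values.

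CPM were scaled by TMM over 17 mice. Ade and Ade + IMC were each compared with Con by edgeR 4.0.16 (quasi-likelihood, filterByExpr), and Ade + IMC with Ade by limma 3.58.1 with a mean-variance trend on log2(normalized count + 1), for genes with a mean of at least 10, which understates changes of low genes. Genes with an adjusted p under 0.1 were called; R was 4.3.3. Logs for scores used a prior count of 2. DESeq2 1.42.0, other scalings, filters, pseudocounts, a block and leaving out mice were alternatives. The fits were also run on simulated data in which few genes changed and all shared 1 dispersion. These data differ in both, so that run does not show how the fits behave here. Intervals are 95%. Total reads were 7716126 to 11680809 in Con, 5444833 to 7673215 in Ade and 5728589 to 8305968 in Ade + IMC, so that 3 reads are worth 0.257 to 0.551 CPM. No pair of libraries in a group agreed within sampling noise (lowest chi-square per degree of freedom 4.21). The labels number each mouse. The p-values weigh a difference between groups against the spread between mice, estimated with information shared across genes.

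The members and gene lists were chosen with earlier results of these data known. From each list, up to 2 called genes with the largest rise and 2 with the largest fall in Ade against Con are named, among those with a mean of at least 1 CPM. Slc2a2, Slc2a5, Pfkm, G6pc3 and the markers Lrp2 and Vcam1 are named beyond that, after their values were seen. For likeness the 5 genes with the highest r are named. 1 gene of the original list is not reported here. No table of protein sequences was used.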

Additional observations from a re-analysis of the deposited data

Results flagged for a closer look

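Of 39 groups of 5 or 6 values examined for a single mouse far from the rest (each gene's CPM, the within-mouse difference of the 2 sets, and the isoform shares of Hk2, Pfkp and Pkm), 6 had one, where about 1 in 20 groups, or 1.95, is found by chance. Control mouse 202 had Hk2 at 4.04 CPM, against 0.813 to 1.17 in the other control mice, and an Hk2 share of hexokinase RNA of 2.04%, against 0.417% to 0.663%. Ade + IMC mouse 212 had Hk2 at 67.7 CPM, against 13.6 to 28.0 in its group, an Hk2 share of 24.9%, against 6.18% to 11.6%, and Pkm at 415 CPM, against 258 to 305. Ade + IMC mouse 310 had Pkm at 70.3% of pyruvate kinase RNA, against 79.8% to 85.1%. The groups are not independent, since the Hk2 level and the Hk2 share of mice 202 and 212 rest on the same reads. The 6 found and the 1.95 by chance are thus no measure of an excess. Mouse 202 had 27.6 CPM of summed adipocyte markers and mouse 212 had 1089, each the most in its group; the part of these in the values was not tested.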

How the results depend on the processing

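The members called numbered 6 to 8 in Ade against Con and 0 in Ade + IMC against Ade under every alternative run. In Ade + IMC against Con they numbered 7 to 8, except 5 in the mice with adipocyte markers under 25 CPM. Hk2, Pck1, Fbp1 and Khk kept their direction and call in both comparisons with Con under every alternative run; that with mice starting with 4 alone (Ade against Con) has 1 control mouse, assumed to vary like the 3 Ade mice, and says nothing about stability. No paired analysis was possible because each mouse number occurs in 1 group only; the first digit of that number was used as a block instead, and the meaning of the digit is not given. The cause of the changes that follow was not tested.

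Leaving out 1 mouse gave 9145 to 9848 genes called in Ade against Con (7 to 8 members), 0 in Ade + IMC against Ade (0 members) and 8486 to 9185 in Ade + IMC against Con (7 to 8 members). The within-mouse difference of the sets then ran from 2.13 to 2.63 for Ade against Con and from -0.66 to -0.16 for Ade + IMC against Ade. Relative to the tubule markers the Ade minus Con differences ran from 0.80 to 0.97 (Pck1), 0.34 to 0.67 (G6pc), 0.20 to 0.33 (Fbp1) and 0.36 to 0.56 (Khk), and those of Ade + IMC minus Ade from -0.22 to -0.03, 7.91e-05 to 0.33, -0.05 to 0.08 and -0.23 to -0.10 in the same order. Mice starting with 4 alone (1 control mouse) gave 5479 genes called in Ade against Con. Ade + IMC against Ade had 37 genes called by DESeq2, 133 with the block and 9 in mice starting with 2 or 3.

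Total-count scaling moved the median of all genes to 0.32 (Ade against Con) and 0.27 (Ade + IMC against Con) and the share of called genes that were higher from 52.2% to 76.2% and from 48.9% to 77.0%. Under it Hk1 turned to 0.12 in Ade against Con and was called at 0.31 in Ade + IMC against Con, where Slc2a1 turned to 0.025, and G6pc in Ade against Con lost its call (adjusted p = 0.111). Hk1 in Ade against Con was 0.15 in mice starting with 4 and was called at -0.37 in those starting with 2 or 3. In Ade + IMC against Con, Hk1 was -0.000541 without the filter, -0.025 in mice starting with 2 or 3, and -0.036 to 0.059 with 1 mouse left out. Slc2a1 there lost its call without mouse 201, 202, 301, 211, 212 or 311 (adjusted p 0.102 to 0.168), under upper-quartile scaling and in the fit over 17 mice.

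Differences of Ade + IMC from Ade that changed sign were Hk2 (-0.023 with the block, -0.060 in mice starting with 4, -0.14 in those with 2 or 3, -0.17 with low adipocyte markers, -0.26 to 0.22 with 1 mouse left out), G6pc (-0.15 in mice starting with 4, -0.28 with low adipocyte markers), Fbp1 (-0.016 in mice starting with 4), Slc2a1 (-0.070 in those with 2 or 3), and Khk (-0.053) and Pkm (-0.00321) with low adipocyte markers. The splits by digit, the adipocyte limit and total-count scaling were chosen after seeing the data. Depth limits Hk2 in Con, at 6 to 28 reads a mouse.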

Other observations

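Some genes of the surrounding lists, chosen after their values were seen, differed in estimate between Ade + IMC and Ade without passing the limma test, in both directions. Of these the rule for named genes had picked only Myc. Slc2a4, the insulin-regulated transporter GLUT4 of muscle and fat, was at 41.6 to 56.5 CPM in Con and 21.4 to 33.4 in Ade. In Ade + IMC it was at 50.6, 86.7, 36.6, 24.4, 42.5 and 44.3 CPM in mice 211, 212, 310, 311, 410 and 412. Pfkl, the liver-type phosphofructokinase, had means of 91.0, 74.0 and 103 CPM in Con, Ade and Ade + IMC, with 78.4 to 165 in the last (limma log2 difference 0.43, adjusted p = 0.711). Pfkfb3, which makes the activator of phosphofructokinase, had means of 45.5, 55.7 and 78.7 CPM (0.43, adjusted p = 0.731). Pklr, the liver-type pyruvate kinase, was estimated lower, with means of 69.5, 64.8 and 48.2 CPM (-0.46, adjusted p = 0.711). Aldoc, an aldolase, was at means of 21.9, 16.1 and 22.0 CPM (0.44, adjusted p = 0.695), and Myc at 12.1, 43.9 and 29.9 CPM (-0.53, adjusted p = 0.711). When the leading digit entered the fit as a block, Aldoc (0.50, adjusted p = 0.0602) and Myc (-0.63, adjusted p = 0.0599) were called, and these were the 2 genes called among the pathway and regulator lists. The adipocyte markers were highest in mice 212, 211 and 410 of that group, and their part in these values was not tested.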
